A study of Oncorhynchus kisutch with 82 samples.

Results

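Gill RNA of wild coho salmon (Oncorhynchus kisutch) smolts was compared between fish caught in the Chilliwack in 2008 and fish caught in the Salmon River in 2009. The fish were chosen from the labels as wild fish of the river smolt season from these capture areas, which gave 11 of the 82 fish in the series. There were 7 Chilliwack fish, whose region is given as Chilliwack_R, and 4 Salmon River fish, whose region is given as Fraser. All 11 were wild, were taken in fresh water, and were each hybridised as Alexa 555-labelled RNA against a pool of all gill samples labelled with Alexa 647. Sex was recorded as male for 2 Salmon River fish and was not recorded for the other fish. The rivers were sampled in different years, so river and year cannot be told apart in this comparison. Salmon River is represented by only 4 fish.

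A smolt is the stage at which a young salmon prepares in fresh water for life in the sea. The gill is the main organ of this change: its ionocytes, the cells that move salt, switch from taking up salt in fresh water to secreting it in seawater, and the gill also meets water-borne pathogens first. Coho smolts leave their rivers for the sea in spring, and each river holds its own spawning population.

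The deposited value of a spot was a log ratio of the fish and pool channels. The direction of the ratio and the base of the logarithm are not stated in the sources used here. Values were taken as log2, so 1 log unit would be a 2-fold difference, and "higher" and "lower" describe the deposited log ratio, not a known amount of RNA. No table at hand links a probe to a gene, so probes are named by their array identifiers and no role can be given for them.

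The arrays of the 11 fish held values for between 12805 and 28877 of the 43236 probes, and 10608 probes had a value on all of them. Of the probe values on these arrays, 44.5% were empty, against 45.6% over the series. The spread of an array's log ratios over probes averaged 0.988 ± 0.271 in Chilliwack fish (SD, n = 7) and 0.920 ± 0.0973 in Salmon River fish (SD, n = 4), with an exact two-sided permutation p of 0.645. The number of probes with a value averaged 23463 in Chilliwack fish and 24922 in Salmon River fish (exact two-sided permutation p = 0.688). Arrays whose SD exceeded 1.3, called wide below, were those of Chilliwack fish 93, at 1.37, and fish 100, at 1.36. Fish 93 also had the fewest probes with a value. Across the series 14 arrays were wide, among them 5 of the 8 hatchery Chilliwack smolts of 2008 and none of the 8 hatchery Chehalis smolts of 2009. The main counts of called probes below are given with and without the wide arrays. Differences of single probes between the wild smolts are with all arrays unless stated.

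Arrays of a single river resembled each other more than arrays of different rivers once the wide arrays were set aside. Pearson's r over shared probes was 0.591 to 0.760 for the 10 pairs within Chilliwack, 0.687 to 0.807 for the 6 pairs within Salmon River and 0.346 to 0.584 for the 20 pairs between the rivers. With the wide arrays in, r within Chilliwack reached down to 0.277 and r between rivers spanned 0.0643 to 0.615. The wide arrays of fish 93 and 100 had r of 0.591 to 0.844 with the 5 wide arrays of hatchery Chilliwack smolts, and 0.0643 to 0.830 with the other 9 wild smolts. Pairs share fish, so these values are a description.

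**Figure D1:**
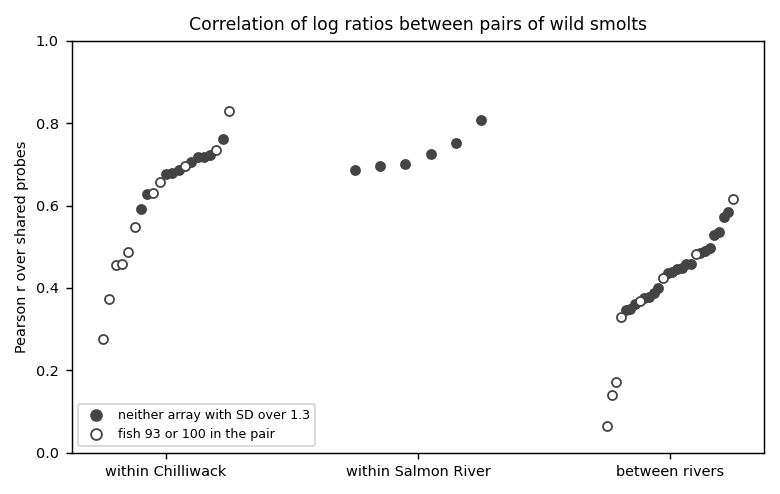
Pearson's r of the log ratios over shared probes for each pair of wild smolts, by whether the pair lay within Chilliwack, within Salmon River or between the rivers. Open points are pairs with fish 93 or 100, and without them every within-river pair (0.591 and above) lay above every between-river pair (0.584 and below).

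The Chilliwack fish tended to be longer and heavier, but the differences did not pass the test. Fork length averaged 10.8 ± 1.18 cm in Chilliwack fish (SD, n = 7) and 9.40 ± 1.54 cm in Salmon River fish (SD, n = 4), a difference of 1.43 cm (exact two-sided permutation test, p = 0.103, adjusted over 3 body measures 0.195). Total mass averaged 12.7 ± 3.30 g in Chilliwack fish and 8.67 ± 4.97 g in Salmon River fish, a difference of 3.98 g (exact permutation p = 0.130, adjusted 0.195). Salmon River fish 1442, at 11.7 cm and 16.08 g, was far larger than the other 3, which measured 8.4 to 8.8 cm. Without it the length difference was 2.20 cm and the mass difference 6.45 g, each with an adjusted exact permutation p of 0.025. Condition factor, mass relative to the cube of length, averaged 0.986 ± 0.0902 in Chilliwack fish and 0.973 ± 0.0644 in Salmon River fish (exact permutation p = 0.836). When each fish was left out in turn, only the loss of fish 1442 brought an adjusted p below 0.05. Beyond a fit with fork length as a covariate, the part of body size in the gill differences was not tested.

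The gill log ratios of the rivers differed at 3217 of the 23174 probes tested, or 13.9%, at a Benjamini-Hochberg adjusted p below 0.05 (limma). Of these, 1752 were higher in Chilliwack fish (7.56%) and 1465 were lower (6.32%). The median size of a called difference was 1.29 log units, against 0.456 over all tested probes and a median standard error of 0.311. A size of at least 1 log unit was reached by 2584 of the called probes, of which 1462 were higher and 1122 lower in Chilliwack fish. The largest differences were mostly in one direction: of 318 called probes that differed by at least 4-fold, were the values log2, 249 were higher and 69 lower in Chilliwack fish, and of 24 that differed by at least 8-fold, 18 were higher and 6 lower. The groups did not overlap at all for 2260 of the 3217 called probes (70.3%), against 3236 of the 23174 tested (13.96%). Calls and overlap rest on the same values, so a larger share among called probes was partly built in.

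Without the 2 wide arrays, 4191 of 23179 probes were called (18.1%), with 2445 higher (10.5%) and 1746 lower (7.53%) in the 5 Chilliwack fish left. Of the probes called, 3016 were shared by the fits with the same sign, which was 93.8% of the calls with all arrays and 71.96% of the calls without the wide ones. The count also depended on single fish. It was lowest without Salmon River fish 1442, at 1510, followed by 1613 without fish 1441, 1733 without fish 1435 and 2107 without Chilliwack fish 96. With fork length as a covariate 1054 probes were called, and 3412 when the wide arrays were left out too, an alternative added after the data were seen.

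**Figure D2:**
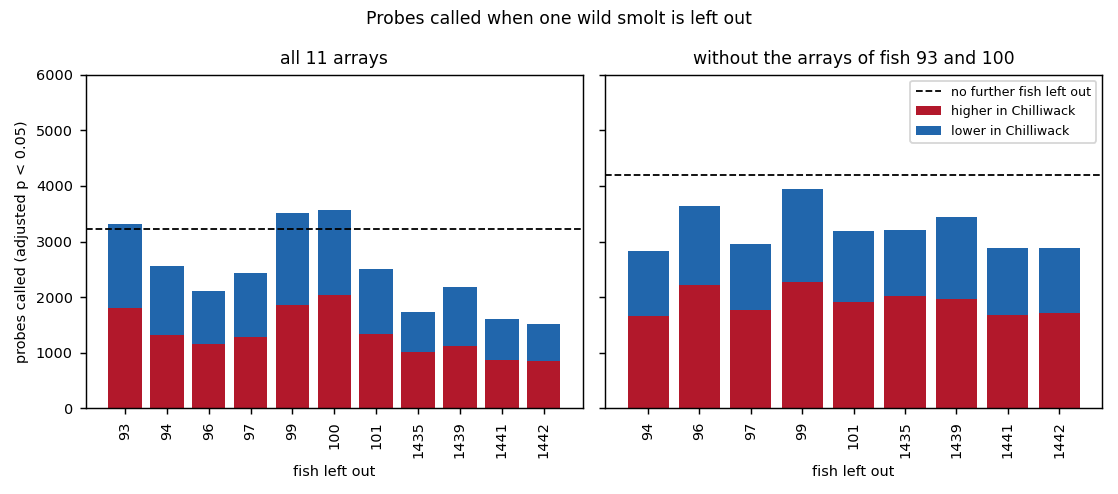
Number of probes called (adjusted p below 0.05) when a single wild smolt is left out, split into probes higher (red) and lower (blue) in Chilliwack fish, with all arrays (left) and without the arrays of fish 93 and 100 (right). Dashed lines mark 3217 and 4191 calls, and the lowest bar with all arrays is the 1510 calls without Salmon River fish 1442.

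Slides were only partly shared. The 11 fish lay on 9 slides, and 2 slides held a fish of each river, fish 101 with fish 1435 and fish 99 with fish 1442. Within the first slide, 3118 of 3140 called probes with a value in both fish differed in the direction of the whole comparison, with a median of 1.12 log units, against 17118 of 21886 tested probes and a median of 0.41. Within the second, 2858 of 2929 called probes did, with a median of 1.06, against 15280 of 20811 tested probes and a median of 0.39. These fish are part of the fit, so the agreement is partly built in. The labels give 2 slide names for fish 1442, and that of its array position was used. With slide as a random block over all 27 river smolts, 2867 probes were called, and the estimated slide correlation was -0.0149. Called probes were spread over the array: the share called lay between 13.2% and 14.99% in 4 bands of array columns and between 13.5% and 14.4% in 4 bands of rows.

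The share called depended on how often a probe was measured. It was 17.2% of the 7379 probes with a value on all 82 arrays, 13.9% of those with 61 to 81 values and 7.43% of those with 41 to 60. Among called probes, 43.5% of the always measured ones were higher in Chilliwack fish, against 79.2% of those with 41 to 60 values. The split between higher and lower calls therefore moved with how completely a probe was measured, and what left values empty is not given in the sources used here.

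The probes with the largest differences are described by how their values moved together in fish outside this comparison. This grouping was made after the values were seen, and its correlations, over the other 71 fish or those of them without wide arrays, are descriptions over fish that also share season, river and year. All of the probes named from here to the comparison with hatchery fish had a value in every one of the 11 fish, except where stated.

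The first set, C010R109, C042R155 and C131R170, was far lower in Chilliwack fish. C010R109 had log ratios of -2.27, -4.09, -4.95, -4.41, -4.30, -4.64 and -5.25 in Chilliwack fish 93, 94, 96, 97, 99, 100 and 101, against 0.72, 0.69, -0.19 and 0.58 in Salmon River fish 1435, 1439, 1441 and 1442. Every Chilliwack fish lay at least 2 log units below every Salmon River fish, and fish 93, a wide array, was the least low. Its mean was -4.27 ± 0.97 in Chilliwack fish and 0.45 ± 0.43 in Salmon River fish, a difference of -4.73 ± 0.45 (SE, adjusted p = 0.000264), or -5.05 without the wide arrays.

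C042R155 followed the same order of groups, with -1.29, -3.05, -3.56, -3.98, -2.74, -3.62 and -4.76 in the 7 Chilliwack fish, against 1.53, 1.65, 0.17 and 1.98 in the 4 Salmon River fish. Fish 93 was again the least low of Chilliwack and fish 1441 the lowest of Salmon River, as for C010R109, and the groups did not overlap. The difference was -4.62 ± 0.53 (SE, adjusted p = 0.000412). C131R170 was measured in only 4 Chilliwack fish, at -3.15, -3.43, -3.51 and -3.82, against 1.17, 1.17, 0.12 and 0.71 in the Salmon River fish. Its difference was -4.27 ± 0.31 (SE, adjusted p = 0.000211). In other fish without wide arrays, C010R109 had r = 0.96 with C131R170 (55 fish) and r = 0.92 with C042R155 (59 fish). C010R109 and C131R170 had been named earlier for a difference between ocean years, so their place here was known when the probes were chosen. C131R170 was read here only because of that earlier naming.

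A second set of lower probes, C061R085, C205R051, C075R137, C012R159 and C173R106, moved almost as a unit. Over 59 other fish without wide arrays, every pair of these 5 had an r of 0.95 to 0.98, and the deviations of 61 fish from their own group means had r of 0.88 to 0.98. C061R085 read -2.27, -2.98, -2.17, -2.14, -1.78, -3.64 and -2.65 in Chilliwack fish, against 1.64, 0.00, 0.88 and -1.25 in Salmon River fish. All Chilliwack values lay below all Salmon River values, but the Salmon River fish differed widely among themselves.

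C205R051 showed the same order of Salmon River fish, at 1.10 in fish 1435, -0.36 in fish 1439, 0.93 in fish 1441 and -1.88 in fish 1442, against -3.53 to -1.62 in Chilliwack fish. Fish 1442, the large Salmon River fish, thus reached into the Chilliwack range. It was also the lowest Salmon River fish for the other 4 probes of the set, and for C173R106, at -2.46, it overlapped Chilliwack too. The differences of the set were -2.84 ± 0.47 for C061R085, -2.77 ± 0.50 for C205R051, -2.72 ± 0.44 for C075R137, -2.71 ± 0.40 for C012R159 and -2.59 ± 0.58 for C173R106 (SE, adjusted p from 0.00177 to 0.0122). With fork length as a covariate C173R106 lost its call (adjusted p = 0.0737), while the other 4 kept theirs.

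C066R133 was also lower in Chilliwack fish but joined neither set. Its values were -2.06, -3.52, -2.73, -2.49, -1.17, -2.66 and -3.84 in Chilliwack fish, against 0.92, 1.32, -0.27 and -0.46 in Salmon River fish. The groups did not overlap, and the difference was -3.02 ± 0.47 (SE, adjusted p = 0.00237).

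Among the higher probes, C001R039 had the largest difference. It read 4.66, 2.41, 2.67, 1.76, 0.82, 3.39 and 2.30 in Chilliwack fish, against -1.44, -2.59, -2.48 and -2.24 in Salmon River fish. The wide arrays of fish 93 and 100 were the highest, and fish 99, the lowest of Chilliwack, still lay more than 2 log units above every Salmon River fish. The means were 2.57 ± 1.22 in Chilliwack fish and -2.19 ± 0.52 in Salmon River fish, and the difference was 4.76 ± 0.54 with all arrays (SE, adjusted p = 0.000412) and 4.18 without the wide ones.

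C167R141, C118R004 and C053R065 formed a set of higher probes with strongly negative log ratios in Salmon River fish. C167R141 lay between -0.79 and 1.27 in Chilliwack fish, near the level of the pool, against -3.53, -4.38, -3.09 and -2.96 in Salmon River fish. C118R004 lay between -1.32 and 1.22 in Chilliwack fish, against -2.39, -3.78, -3.96 and -4.18 in Salmon River fish. C053R065 lay between -0.37 and 2.05 in Chilliwack fish, against -2.09, -2.95, -2.55 and -1.90 in Salmon River fish. None of the 3 overlapped, and fish 93 was the lowest Chilliwack fish for each. Differences were 3.76 ± 0.36, 3.65 ± 0.48 and 3.62 ± 0.41 for C167R141, C118R004 and C053R065 (SE, adjusted p of 0.000276, 0.000895 and 0.000412). In other fish without wide arrays, r was 0.93 for C167R141 with C118R004 (59 fish) and 0.88 for each of them with C053R065 (56 fish).

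C122R068, C148R013 and C092R076 formed another set of higher probes that varied strongly among fish within each river. C122R068 read 2.56, -0.64, 0.82, 0.81, 0.16, -0.69 and -1.02 in Chilliwack fish, against -2.48, -1.32, -4.71 and -3.81 in Salmon River fish. C148R013 read 0.74, -2.30, -0.55, 0.40, -0.42, -1.58 and -0.55 in Chilliwack fish, against -3.63, -1.47, -5.61 and -5.11 in Salmon River fish. Fish 93 was the highest Chilliwack fish, fish 1439 the highest Salmon River fish and fish 1441 the lowest for both probes, and for C148R013 fish 1439 lay within the Chilliwack range. C092R076 lay between -0.32 and 3.31 in Chilliwack fish and between -3.24 and -1.62 in Salmon River fish, without overlap. The differences were 3.36 ± 0.68 for C122R068, 3.35 ± 0.70 for C148R013 and 3.84 ± 0.59 for C092R076 (SE, adjusted p = 0.00809, 0.00936 and 0.00222). In other fish without wide arrays C122R068 had r = 0.97 with C148R013 (59 fish) and r = 0.82 with C092R076 (58 fish).

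C145R119 completed the 8 largest higher probes, at 4.57, 2.49, 1.59, 3.62, 1.72, 3.69 and 2.50 in Chilliwack fish, against -1.23, 0.83, -0.37 and -1.10 in Salmon River fish. The groups did not overlap, the wide arrays of fish 93 and 100 were the highest, and the difference was 3.35 ± 0.55 with all arrays (SE, adjusted p = 0.00312) and 2.85 without the wide ones.

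**Figure D3:**
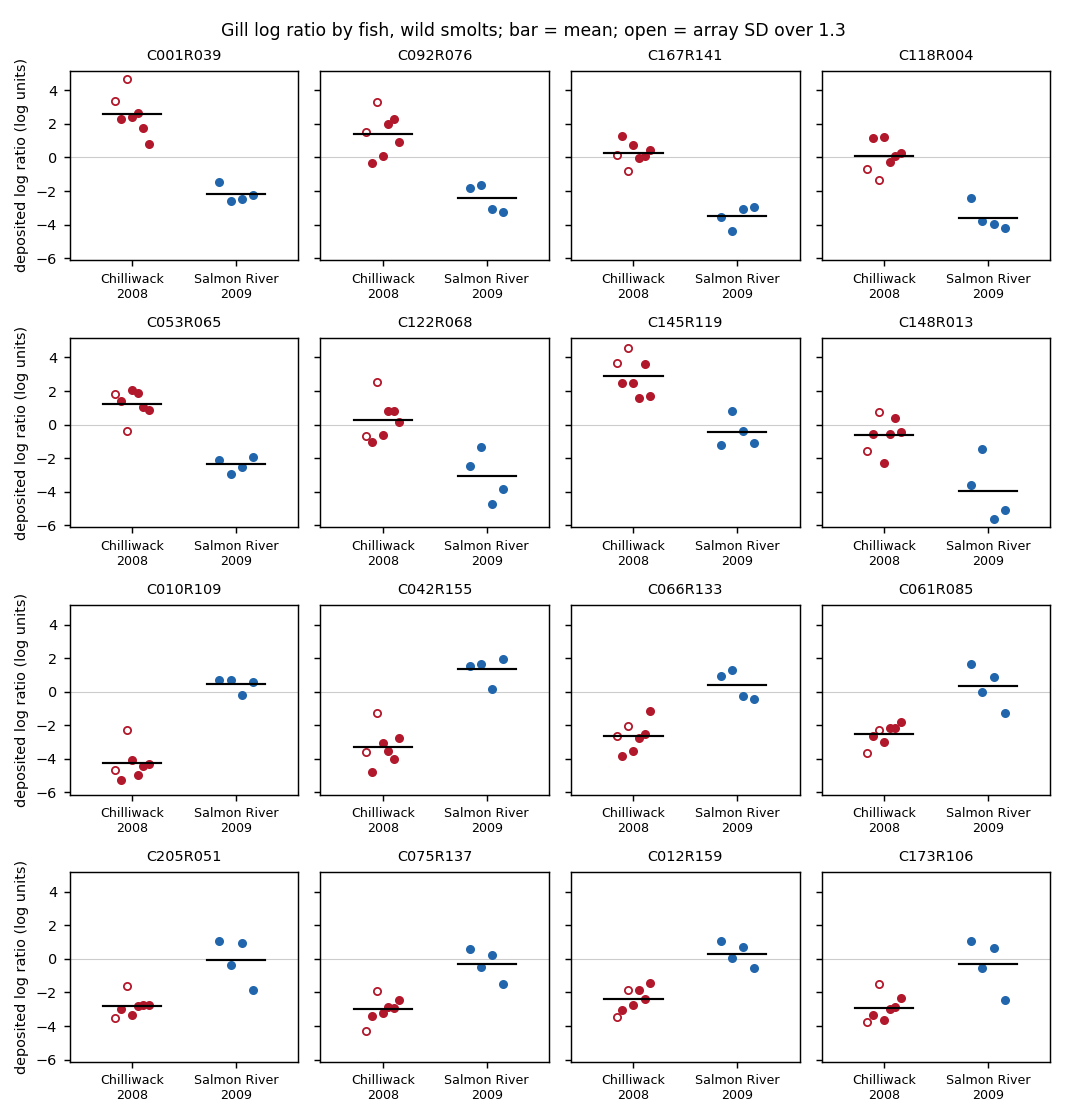
Deposited log ratio of each wild smolt for the 8 probes with the largest higher and the 8 with the largest lower differences, Chilliwack fish of 2008 left and Salmon River fish of 2009 right in each panel. Bars are group means and open points are the wide arrays of fish 93 and 100; the groups overlap for C148R013, C205R051 and C173R106, while for C010R109 the Chilliwack fish lie at -5.25 to -2.27 and the Salmon River fish at -0.19 to 0.72.

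Hatchery smolts gave a comparison in other fish with the same first river and years. The 8 hatchery Chilliwack smolts of 2008, of which 5 had wide arrays, were set against 8 hatchery Chehalis smolts of 2009. The smallest hatchery Chilliwack fish was far shorter and lighter than all the rest, and the others were mostly longer than the Chehalis fish. Body size was not in this fit. This comparison shares no fish with the wild one, but river and year coincide in it as well. With all arrays, 5907 of 18273 probes were called (32.3%), while without the wide arrays, with 3 Chilliwack fish left, 64 of 22257 were called (0.288%). Of the probes called in wild smolts, 2758 entered both fits and 2409 of these (87.3%) had the same sign in hatchery smolts, against 70.4% of all 18133 shared probes. Both comparisons called 1231 of them with the same sign, which was 44.6% of the wild list and 21.0% of the 5875 shared probes called in hatchery smolts, and 21 with opposite signs. Of all shared probes, 27.9% were called in hatchery smolts with the sign of the wild difference. Without the wide arrays in either comparison, 3087 of 3956 wild calls (78.03%) had the same sign in hatchery smolts, against 63.1% of all shared probes, and 16 were called with the same sign and 3 with the opposite one. Over the shared probes, which do not count as replicates, the differences in wild and hatchery smolts had r = 0.562 with all arrays and 0.386 without the wide ones.

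Probes were next chosen as called in wild smolts, with and without wide arrays, and in hatchery smolts with the same sign. They were ranked by the smaller of their wild and hatchery differences, so large differences in both were built into the choice. On the higher side this choice gave C001R039, C119R027, C205R164 and C122R068. C119R027 read 2.99, 2.34, 2.90, 2.42, 1.35, 4.82 and 2.64 in wild Chilliwack fish, against -1.57, -0.96 and -1.66 in wild Salmon River fish, with no value in fish 1442. In hatchery smolts it lay between 1.28 and 5.36 in all 8 Chilliwack fish and between -1.84 and -0.89 in the 5 Chehalis fish with a value. The difference was 4.18 ± 0.53 in wild (SE, adjusted p = 0.000929) and 4.04 in hatchery smolts (adjusted p = 0.000408), and the Chilliwack and other fish did not overlap in either.

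C205R164 likewise read 1.82, 3.15, 3.29, 2.55, 1.18, 3.90 and 2.76 in wild Chilliwack fish, against -1.47, -1.34 and -1.70 in the 3 wild Salmon River fish with a value. Its difference was 4.17 ± 0.47 in wild smolts (SE, adjusted p = 0.000519) and 3.63 in hatchery smolts (adjusted p = 0.000814). C119R027 and C205R164 had r = 0.86 over 45 other fish without wide arrays, so they do not count as separate observations. Without the wide arrays the hatchery difference was 3.60 for C205R164 (adjusted p = 0.0417) and 4.12 for C119R027 (adjusted p = 0.0553). C001R039 had a hatchery difference of 5.55 with all arrays (adjusted p = 0.000209) and 4.35 without the wide ones (adjusted p = 0.0840). C122R068 had a hatchery difference of 3.26 with all arrays (adjusted p = 0.00210) and 3.09 without the wide ones (adjusted p = 0.179). The wild differences of C119R027, C205R164 and C122R068 without the wide arrays were 3.73, 4.09 and 3.10.

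On the lower side, the same choice gave C176R144, C040R065, C091R084 and C211R125, called in both wild and hatchery smolts. C176R144 averaged -2.09 ± 0.70 in wild Chilliwack fish and 0.35 ± 0.26 in wild Salmon River fish, a difference of -2.44 ± 0.34 (SE, adjusted p = 0.00138), and its hatchery difference was -2.11 with all arrays (adjusted p = 0.000755) and -1.30 without the wide ones (adjusted p = 0.1599). C040R065 read -2.26, -1.91, -2.53, -2.30, -0.84, -3.67 and -1.33 in wild Chilliwack fish, against -0.23, 0.25, -0.11 and 0.14 in wild Salmon River fish, a difference of -2.13 ± 0.41 (SE, adjusted p = 0.00658). The wide array of fish 100 was the lowest and fish 99 the highest of Chilliwack, and the groups did not overlap. C091R084 and C211R125 differed by -2.03 and -2.12, and with fork length as a covariate their adjusted p was 0.0573 and 0.0600. Without the wide arrays the wild differences of C176R144, C040R065, C091R084 and C211R125 were -2.27, -1.80, -1.57 and -1.73. In hatchery smolts C040R065, C091R084 and C211R125 differed by -2.07, -2.003 and -1.98 with all arrays, and by -1.31, -1.30 and -1.35 without the wide ones (adjusted p from 0.0816 to 0.104). C040R065 and C211R125 had r = 0.93 over 59 other fish without wide arrays.

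The river differences in wild and hatchery smolts were tested against each other. Their second rivers were Salmon River in wild and Chehalis in hatchery smolts, so origin and second river cannot be told apart here. The test called 208 of 18133 probes (1.15%), 143 with a higher (0.789%) and 65 with a lower river difference in wild fish (0.358%). Without the wide arrays it called 185 of 21442 (0.863%). The count of 208 fell to between 77 and 161 when a Salmon River fish was left out, an alternative added after the data were seen. It was 77 without fish 1442, 86 without fish 1435 and 90 without fish 1439. The 3 probes of the first lower set were among the calls. C010R109 and C042R155 had been chosen for large wild differences, and the same wild fish enter this test. That choice favoured a larger difference in wild than in hatchery smolts. C010R109 differed by -4.73 in wild smolts and -1.36 in hatchery smolts, a difference between them of -3.36 (adjusted p = 0.0172). C042R155 differed by -4.62 in wild and -0.57 in hatchery smolts, a difference of -4.05 (adjusted p = 0.00210), and C131R170 by -4.27 in wild and -0.79 in hatchery smolts, a difference of -3.48 (adjusted p = 0.0122). None of the other 20 probes named above passed this test, which does not show that their differences were equal. For those chosen as called with the same sign in wild and hatchery smolts, the choice itself favoured similar differences.

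Stock at sea gave a comparison within a single year. In ocean fall fish of 2008, 6 of Chilliwack_R stock were set against 7 of Fraser stock with origin as a covariate, and 0 of 23692 probes passed limma's adjusted threshold (0%), although 3739 had an unadjusted p below 0.05. Leaving out the wide array gave 0 of 23233, and the number at that unadjusted p was 1313. Of the wild smolt calls in this fit, 1124 of 3169 (35.5%) had the same sign, against 44.2% of all shared probes. The group means at sea for C010R109, C119R027 and C001R039 take no account of origin. C010R109 averaged 0.45 ± 1.40 in Chilliwack_R stock and -0.81 ± 2.36 in Fraser stock. C119R027 averaged -0.97 ± 1.196 in Chilliwack_R stock and -0.27 ± 0.81 in Fraser stock, and C001R039 averaged -0.95 ± 2.01 in Chilliwack_R stock and 0.68 ± 0.89 in Fraser stock. With origin in the fit, the stock difference of C010R109 was 0.77 with all arrays and -0.26 without the wide array, so its direction turned. That of C001R039 was -2.23 with all arrays and -1.70 without, and that of C119R027 was -0.87 with all arrays and -1.07 without, both opposite to the wild smolts, and none of the 3 probes passed the test.

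Year at sea gave a comparison within a single stock region. In summer and fall fish of Fraser stock, 14 fish of 2008 were set against 25 of 2009 with season and origin as covariates, and 7843 of 22486 probes were called (34.9%), or 2029 of 23169 without the wide arrays (8.76%). All 6 wide arrays lay among the 2009 fish. Without wide arrays, 3205 of 4096 wild smolt calls (78.2%) had the same sign as the year difference at sea, against 63.2% of all shared probes. Of these calls, 765 were called in both with the same sign and 6 with opposite signs. The 765 were 18.7% of the wild list and 39.4% of the 1943 shared probes called at sea. Of all shared probes, 7.66% were called at sea with the sign of the wild difference. With all arrays in both fits the share with the same sign was 59.7%, against 52.8% of all shared probes. In those fits 1036 wild calls were called at sea with the same sign and 158 with the opposite one. The 1036 were 32.9% of the wild list, against 22.4% of all shared probes. The ocean stock and year comparisons share the Fraser fish of fall 2008.

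**Figure D4:**
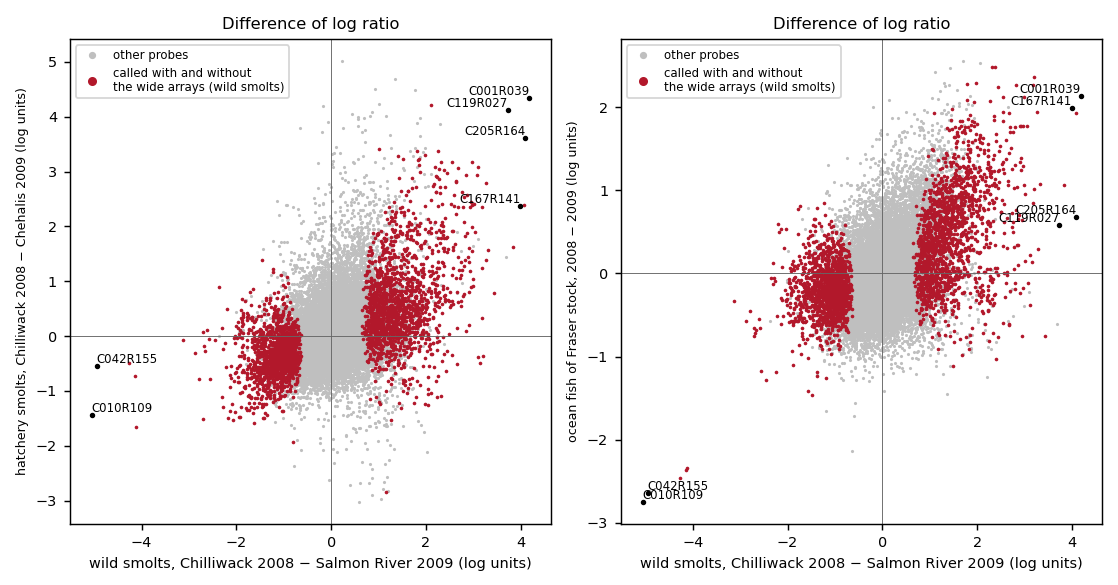
Difference of log ratio in wild smolts, Chilliwack 2008 minus Salmon River 2009 (horizontal), against that of hatchery smolts, Chilliwack 2008 minus Chehalis 2009 (left, 21415 probes), and of ocean Fraser stock, 2008 minus 2009 (right, 22038 probes), all without wide arrays. Red points were called in wild smolts with and without the wide arrays. C010R109 and C042R155 lie far to the lower left at sea, while C119R027 and C205R164 lie high in hatchery smolts and near 0.6 at sea. C010R109 had been named earlier for a difference between ocean years, and C119R027 and C205R164 were chosen for calls in hatchery smolts.

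The first lower set also differed between years at sea. For C010R109 and C131R170 this was built into the choice, since they had been named earlier from these data for that difference. C042R155 was not on that earlier list. It was grouped with C010R109 by correlation over other fish, which include these ocean fish, so its year difference is not separate from that of C010R109. C010R109 averaged -3.46 ± 1.38 in summer fish of 2008 (n = 7) and 0.31 ± 1.02 in summer fish of 2009 (n = 14), and -0.81 ± 2.36 in fall fish of 2008 (n = 7) and 1.48 ± 0.81 in fall fish of 2009 (n = 11), all of Fraser stock. The level of the wild Chilliwack smolts, -4.27, was the lowest of these groups, next to that of the summer fish of 2008, and the level of the wild Salmon River smolts, 0.45, was near that of the summer fish of 2009. Hatchery smolts lay between, at -2.26 ± 0.93 in Chilliwack fish and -0.89 ± 1.14 in Chehalis fish (n = 8 each). The year difference at sea without wide arrays was -2.74 for C010R109 (adjusted p = 0.0125), -2.64 for C042R155 (adjusted p = 5.35e-05) and -2.46 for C131R170 (adjusted p = 0.0125).

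Among the higher probes, C001R039 differed by 2.13 between ocean years (adjusted p = 0.0153), C167R141 by 1.99 (adjusted p = 0.0290) and C118R004 by 1.93 (adjusted p = 0.0345), in the direction of the wild smolts. C053R065, of the same set as the latter probes, differed by 1.06 (adjusted p = 0.0861). C145R119 differed by 0.34 (adjusted p = 0.511), and neither of these passed the test. All of these values are without wide arrays. For C119R027 and C205R164 the year difference at sea was 0.58 and 0.67 (adjusted p = 0.218 and 0.0850). C119R027 averaged 2.78 ± 1.05 in wild and 2.85 ± 1.45 in hatchery Chilliwack smolts, and between -1.58 and -0.27 in the Salmon River and Chehalis smolts and the 5 ocean groups with 5 or more fish. C205R164 averaged 2.66 ± 0.92 in wild and 2.74 ± 1.38 in hatchery Chilliwack smolts, and averaged -0.02 or lower in the same other groups. Ocean fish of Chilliwack_R stock in fall 2008 were among these low groups, at -0.97 for C119R027 and -1.10 for C205R164.

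The second lower set and the probes C122R068, C148R013 and C092R076 showed no year difference at sea that passed the test without wide arrays (adjusted p from 0.276 to 0.792). C122R068 averaged -1.90 ± 2.85 and -1.06 ± 1.61 in summer fish of 2008 and 2009 and -4.59 ± 1.69 and -4.62 ± 0.98 in fall fish of 2008 and 2009. C061R085 averaged -0.29 ± 1.92 and -0.25 ± 1.99 in summer and 1.37 ± 1.35 and 0.91 ± 1.68 in fall fish of the same years. For both probes wild Chilliwack smolts differed from wild Salmon River smolts in the direction of summer against fall fish. This was not tested. C061R085 had been named earlier from these data for stage, so for it a difference between seasons was partly built in.

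**Figure D5:**
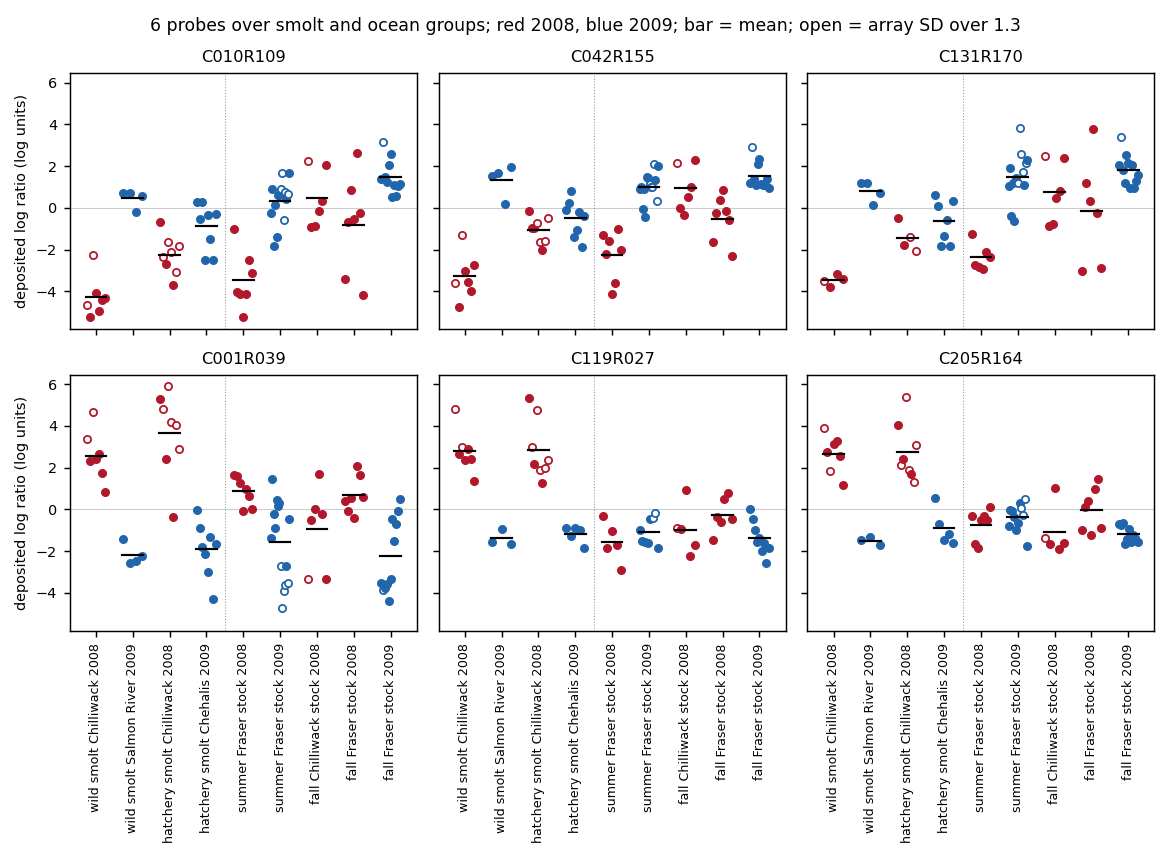
Deposited log ratio by fish for 6 probes over the 4 groups of river smolts and 5 groups of ocean fish, with bars at group means, 2008 in red, 2009 in blue and wide arrays open. C010R109, C042R155 and C131R170 are low in wild Chilliwack smolts and in summer fish of 2008, while C119R027 and C205R164 are high in both Chilliwack smolt groups (means of 2.66 to 2.85) and at or below 0 on average elsewhere. C010R109 and C131R170 had been named earlier for a difference between ocean years, and C119R027 and C205R164 were chosen for calls in both wild and hatchery smolts.

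Some probes were called in the wild smolts only when the wide arrays were left out, and these were named for the size of that difference. C075R040 read 3.79 in fish 93 and -0.40 in fish 100, against -2.004, -2.64, -2.34, -2.30 and -2.28 in the other Chilliwack fish, and 0.28, -0.88, -0.75 and 0.15 in Salmon River fish. Its difference was -0.87 with all arrays (adjusted p = 0.572) and -2.01 without the wide ones (adjusted p = 0.000878). C068R002 was similar, with 0.96 in fish 93, between -2.17 and -1.55 in the other 4 Chilliwack fish with a value, and between -0.31 and 0.98 in Salmon River fish. Its difference was -1.52 with all arrays (adjusted p = 0.0942) and -2.02 without the wide ones (adjusted p = 0.00316). C226R138 differed by -1.35 with all arrays and -1.98 without. On the higher side C176R119, C094R096 and C133R140 differed by 3.28, 2.01 and 2.01 with all arrays and 3.68, 2.65 and 2.40 without (adjusted p = 0.0247, 0.00265 and 0.0479). All 6 overlapped between the rivers with all arrays.

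Few probes had a value in every fish of 1 river and in none of the other. Of the 43236 probes, 6 had a value on all 7 Chilliwack arrays and on no Salmon River array. A value on all 4 Salmon River arrays and on no Chilliwack array was held by 5. Without the wide arrays, when fewer Chilliwack arrays had to meet the rule, these counts were 47 and 32. C195R010 lay between 0.51 and 2.52 in Chilliwack fish and C001R090 between -0.35 and 1.37, while C161R016 lay between 1.17 and 1.89 in Salmon River fish and C018R016 between 0.16 and 1.03. No test was made, since the reason for an empty value is not known, and 20062 probes stayed out of the wild fit for too few values.

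Probes named in earlier work on these data for stage, ocean year or origin were read here too. Of 11 stage probes, 3 were higher, 2 were lower and 6 were not called, where 7.56% of all tested probes were higher and 6.32% lower, with a median difference of -0.53, against 0.05 over all tested probes. The higher ones were C259R057 at 1.46, C101R031 at 3.17 and C192R014 at 2.49, and the lower ones were C010R109 and C061R085. C101R031 read 1.499, -1.62, 0.05, 0.55, -0.39, -1.35 and -1.09 in Chilliwack fish, against -3.22, -1.50, -5.07 and -4.25 in Salmon River fish. Salmon River fish 1439 was again the highest of its river and fish 1441 the lowest, as for C122R068. Of 4 ocean year probes, C010R109 and C131R170 were lower and C139R012 and C083R035, at 0.93 and 1.05, were not called, with a median of -1.67 and, as above, 13.9% of all tested probes called. The origin probe C019R156 differed by -0.03 ± 0.60 (SE, adjusted p = 0.975), with values from -1.998 to 2.06 in Chilliwack fish and from -0.49 to 0.83 in Salmon River fish.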

How the data were processed

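Per the labels, amplified gill RNA was labelled the same way round on every array. The authors deposited a log ratio per spot in a processed table. Its base is not stated, and it was read as log2, as was the authors' deposited series table of the same arrays. No source used here gives the scanner, the normalization or the rule for empty values.

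The 60 control spots were left out, and no empty value was filled in. Probes were tested where each group had values for 50% or more of its fish, and for no fewer than 2. Differences were fitted with limma 3.58.1 in R 4.3.3 (lmFit, eBayes, two-sided), adjusted by Benjamini-Hochberg and called at an adjusted p below 0.05. In simulated data of 23174 probes, 100 probes were changed by 1 log unit and 100 by 2 log units. Of these changes 12% and 69% were recovered. The reported fit called far more probes, 3217, so these rates need not hold for it. Body and array measures were tested by exact permutation over 330 splits.

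Named probes were the 8 largest in each direction with a value on all 11 arrays and an unchanged sign without wide arrays. To these came 4 in each direction called also in hatchery smolts with the same sign, ranked by the smaller of the wild and hatchery differences. Further ones were 3 in each direction called only without wide arrays, 2 in each measured in 1 river, and lists named earlier. The members, lists and tests were chosen with earlier results of these data known. The fish are separate fish per the labels. Alternatives were other normalizations, filters, variance priors, array weights, slide, array position, fork length and leaving out each fish. The number of arrays limits the precision.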

Additional observations from a re-analysis of the deposited data

Results flagged for a closer look

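Of 93 sets of values from a single river tested for a fish far from the others, 8 held one. For separate sets, chance alone marks about 1 in 20. These sets share fish and many of the probes moved together, so their count cannot be weighed against that rate. In Salmon River fish, fish 1442 stood apart in fork length, at 11.7 cm against 8.8 cm for the next fish, and in total mass, at 16.08 g against 7 g. Fish 1441 stood apart for C010R109, at -0.187 against 0.585 for the next. In Chilliwack fish the remaining 5 were all fish 93, whose array was wide and held the fewest values. It read -2.27 for C010R109, -1.62 for C205R051, 0.961 for C068R002, 3.79 for C075R040 and -1.92 for C153R120. C068R002 and C075R040 were named because their call was lost with the arrays of fish 93 and 100 in the fit, so a fish far from the others was built into that choice and cannot be read against the chance rate.

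The river difference in wild smolts differed from that in hatchery smolts, by the test of the difference itself, for C010R109, by -3.36 (adjusted p = 0.0172), and for C042R155, by -4.05 (adjusted p = 0.00210). The second river was Salmon River in wild and Chehalis in hatchery smolts, so origin and second river cannot be told apart in this test. Both probes had been chosen for large differences in the same wild fish, which favoured such a result.

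Control spots, which no comparison used, also carried log ratios. Of the 4 with a value on all 11 arrays, the highest values were 1.64 for 3xSLv1 in fish 1435, 1.49 for DarkCorner in fish 93, 0.555 for E1A_r60_3 in fish 1441 and 2.85 for GE_BrightCorner in fish 93. The lowest were -2.59 for 3xSLv1 in fish 101 and -2.13 for DarkCorner in fish 99. For E1A_r60_3 the lowest was -0.323 in fish 93, and for GE_BrightCorner -0.637 in fish 1442. There is no control sample to set these against.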

How the results depend on the processing

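The count of 3217 probes called between wild Chilliwack and Salmon River smolts was 1846 over probes with a value on all arrays, 5532 with array weights and 1054 with fork length as a covariate. Leaving out each fish in turn gave 1510 to 3559. Under the other settings run, it stayed between 2287 and 4623. Quantile normalization gave 4393 calls, 2184 higher and 2209 lower, against 1752 higher and 1465 lower in the reported fit. The fit without wide arrays, with 4191 calls, gave 2831 to 3950 when a further fish was left out. The hatchery count of 5907 was 64 without wide arrays. For 208 probes the river difference itself differed between wild and hatchery smolts. This count was 576 with quantile normalization, 101 over probes with a value on all arrays, and 77 to 161 without each Salmon River fish. The ocean year count of 7843 was 2029 without wide arrays and 3490 over probes with a value on all arrays. Fewer probes or fish enter some of these fits, and other causes were not tested.

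The differences in fork length ranged from 1.10 to 2.20 cm and in mass from 3.03 to 6.45 g when a fish was left out, with the highest values without fish 1442. The difference in condition factor ranged from -0.0175 to 0.0437 and turned to -0.00136 without fish 101 and -0.0175 without fish 1441. Of the 22 probes named for the largest or shared differences, 19 kept their call in each setting run, and C173R106, C091R084 and C211R125 lost it with fork length as a covariate. None of these 22 changed direction, which was partly built in, since they were chosen as called with an unchanged sign without wide arrays. Among the uncalled probes of the earlier lists, C019R156, near 0 at -0.03, turned to 0.05 without the wide arrays, and C168R092 and C071R121, likewise uncalled, also changed sign in some settings. The fish numbers pair no fish of different rivers, and slides pair only 2 fish of each river, whose differences are given above.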
